A study of Mus musculus with 8 samples.

Results

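Translation initiation factors were taken as every gene whose symbol in the annotation of the array is Eif followed by a digit, leaving out the Eif2ak kinases and the sex-linked pair Eif2s3x and Eif2s3y. The rule found 41 genes among the 18193 named genes on the array, and each was read from its probe set with the highest mean signal over the 8 arrays. Of these, 40 lay above a filter on low signal and entered a test across 12520 genes. The remaining member, Eif4a3, an RNA helicase relative, read between 4.21 and 5.28 on the log2(signal + 16) scale, under the filter of 5.38, and is not described further. All levels below are on this scale, on which a difference of 1 is a 2-fold change, and a gene is said to have risen or fallen where the Benjamini-Hochberg adjusted p of limma over all genes was under 0.05.

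Initiation begins when eIF2 brings the initiator tRNA to the small ribosomal subunit, helped by eIF1, eIF1A, eIF3 and eIF5. The cap-binding protein eIF4E, the scaffold eIF4G and the helicase eIF4A load the mRNA, and eIF5B joins the large subunit. Each round leaves eIF2 bound to GDP, and the exchange factor eIF2B recharges it. T cells that meet antigen grow before they divide, and protein synthesis per cell is known to go up during that growth.

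Mouse splenic CD8 T cells were isolated by positive magnetic selection and cultured together with dendritic cells derived from bone marrow, 10 T cells to each dendritic cell, over 18 h. The groups were wild-type T cells with dendritic cells carrying the ovalbumin peptide N4 (WT N4), T cells of the PKC theta KO with the same cells (PKC theta KO N4), T cells of the p50 cRel DKO with the same cells (p50 cRel DKO N4), and wild-type T cells with dendritic cells carrying no peptide (WT UN). All mice had the C57BL/6 background. PKC theta is a kinase that links the T cell receptor to NF-kB, and p50 and cRel are subunits of NF-kB. CD11c selection was then used to remove the dendritic cells, and total RNA from every culture went on an array of its own, with 2 arrays in each group. The labels give neither the antigen receptor of the T cells, nor the age or sex of the mice, nor the tissue in which the genes were deleted. No knockout culture without peptide is among the 8 arrays, so an effect of a knockout on resting cells was not measured. Nothing in the labels says that replicate arrays stand for separate mice, so p-values measure the spread between these samples only.

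The T cell genes Cd3d, Cd3e, Cd3g, Cd8a and Cd8b1 were bright on all 8 arrays, at 11.16 or above. Of these, Cd8a was higher with peptide, by 1.07 in WT N4 (adjusted p = 0.00351), 1.85 in PKC theta KO N4 and 1.70 in p50 cRel DKO N4 against WT UN, and Cd8b1 was 0.78 higher in PKC theta KO N4. Genes of B cells, of dendritic cells and macrophages and of neutrophils were far higher without peptide: the summed signal of 9 B cell genes was 625 to 2740 in WT N4, 1880 to 3770 in PKC theta KO N4, 2830 to 2880 in p50 cRel DKO N4 and 34400 to 51200 in WT UN. The sum of 16 dendritic cell and macrophage genes was 6870 to 16900 in WT N4, 10600 to 15700 in PKC theta KO N4, 11000 to 11100 in p50 cRel DKO N4 and 106000 to 144000 in WT UN, and the sum of 7 neutrophil genes was 294 to 838 in WT N4 and 23700 to 26400 in WT UN. Among them, Ms4a1 of B cells read 9.67 and 6.57 in WT N4 and 13.78 and 13.42 in WT UN, and no defining gene was at 0. All 9 B cell genes, all 16 dendritic cell and macrophage genes and all 6 neutrophil genes past the filter fell with peptide. Other markers went both ways. Klrk1, from the list of NK cell markers, was 0.95 higher in WT N4 (adjusted p = 0.0668). It rose in PKC theta KO N4 and p50 cRel DKO N4 (1.41 and 2.15). Ncr1, from the same list, had a mean under the filter. It read 4.53 and 4.12 in WT N4, 5.42 and 5.68 in PKC theta KO N4, 4.63 and 4.62 in p50 cRel DKO N4, and 4.86 and 5.39 in WT UN. Whether NK cells rose was not tested. Of the CD4 T cell genes Cd40lg rose by 1.56 and Zbtb7b fell by 1.90 in WT N4, with Cd4 itself under the filter. The part of these cells and of the Cd8a difference in the comparisons with WT UN was not tested, and in such mixed RNA fewer cells of a type and less RNA per cell cannot be told apart. The Y-linked genes Kdm5d and Uty read 4.92 to 6.28 on the knockout arrays and 8.87 to 10.15 on the wild-type arrays, while Xist read 12.27 or above on every knockout array, 5.18 and 6.65 in WT N4, and 6.05 and 11.84 in WT UN, so sex-linked transcripts differed with genotype and sex cannot be told apart from knockout.

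Most initiation factors were higher in wild-type cultures with the peptide. In WT N4 against WT UN, 23 of the 40 measured factors rose (57.5%), 1 fell and 16 did not pass the test. Over all genes 40.7% passed in either direction, 17.2% higher and 23.5% lower. The median change of the factors was 0.50, against -0.10 for all genes tested, and 36 of the 40 changes were positive. Most changes were modest: the range was -0.67 to 1.37, and 4 factors rose by 2-fold or more. Without WT N4 replicate 1 the median change was 0.47 for the factors and -0.03 for all genes. Without WT UN replicate 2 these medians were 0.44 and -0.074. Fewer factors and fewer of all genes passed in both of these fits. When all probe sets of a gene were averaged 15 factors changed, and 4587 of 12520 genes passed. With the replicate number as a block 6 more factors rose and none was lost. Over all genes the block gave 6401 calls, against 5101 without it. Other scalings shift the median over all genes: the median change of all genes was 0.088 after quantile normalization and 0.32 after median centring of the arrays, and that of the factors was 0.34 and 0.92. In all 3 scalings 22 of the 23 factors rose, the exception being Eif3m after quantile normalization (0.29, adjusted p = 0.0873).

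**Figure D1:**
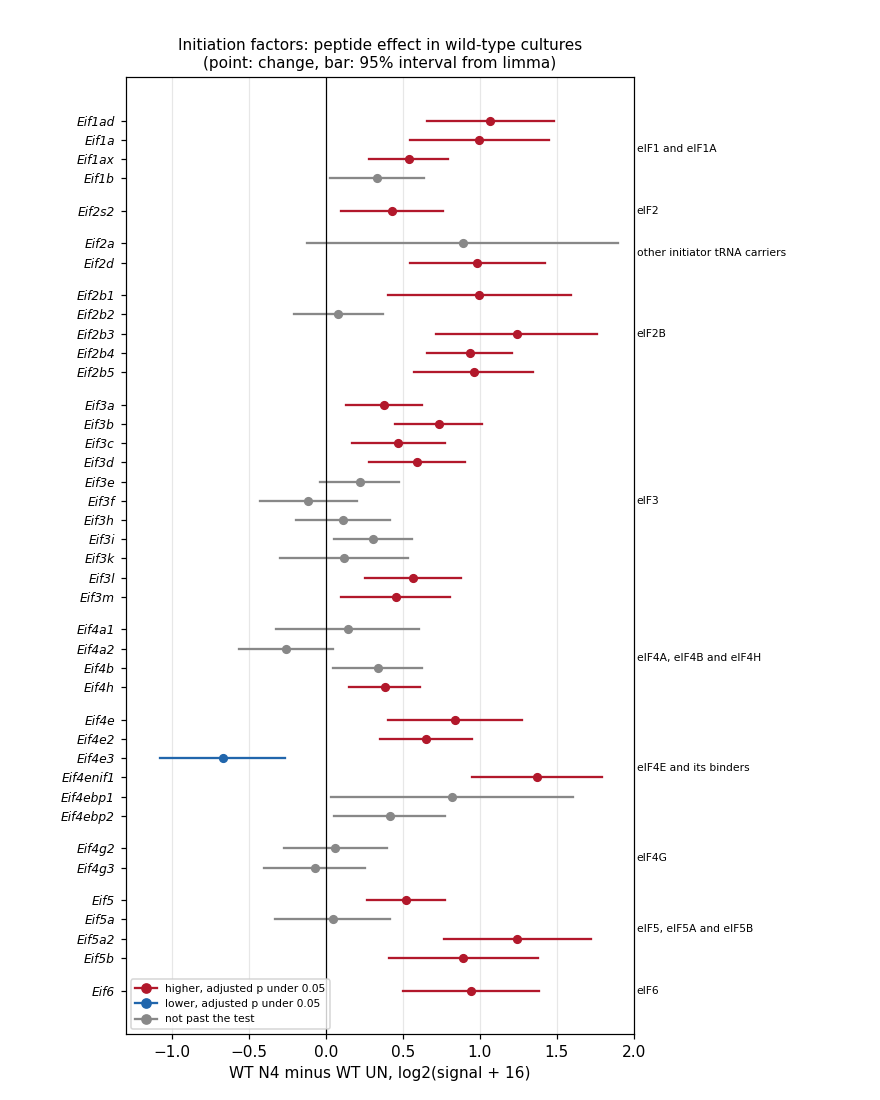
Change of each of the 40 measured initiation factors in WT N4 minus WT UN, as the difference of log2(signal + 16), grouped by complex. Points are the limma estimates, bars are 95% intervals, red and blue mark factors that rose and fell at an adjusted p under 0.05, and grey marks those that did not pass. The 4 factors at 2-fold or above are Eif4enif1, Eif5a2, Eif2b3 and Eif1ad, and Eif4e3 is the 1 factor that fell in the values as deposited.

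Genes of the eIF1 and eIF1A group were mostly higher. Of its 4 measured members 3 rose, with a median change of 0.77. Eif1a, an autosomal eIF1A gene, read 12.31 and 12.48 in WT N4, 12.55 and 12.51 in PKC theta KO N4, 12.04 and 12.58 in p50 cRel DKO N4, and 11.21 and 11.58 in WT UN. The WT N4 arrays lay above both WT UN arrays, by 1.00 (SE 0.20, adjusted p = 0.0042). Eif1ad, a gene named for its eIF1A domain, read 12.03 and 11.62 in WT N4, 11.82 and 11.62 in PKC theta KO N4, 11.92 and 11.67 in p50 cRel DKO N4, and 10.88 and 10.63 in WT UN. All 6 arrays with peptide stood above both without it, and the WT difference was 1.07 (SE 0.18, adjusted p = 0.00192). A second Eif1ad probe set, with a mean of 10.52, gave 0.23 and did not pass in a limma fit over probe sets (adjusted p = 0.443). The size of the rise therefore depends on the probe set.

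Eif1ax, the X-linked copy of the eIF1A gene, rose less. It read 13.07 and 12.91 in WT N4, 13.14 and 13.14 in PKC theta KO N4, 13.06 and 13.00 in p50 cRel DKO N4, and 12.45 and 12.44 in WT UN. Its arrays also did not overlap, with a difference of 0.54 (SE 0.11, adjusted p = 0.00554), although the call was lost without WT N4 replicate 1 (0.46, adjusted p = 0.0586), when its probe sets were averaged (0.37, adjusted p = 0.0699) and when plain _at probe sets were preferred (0.40, adjusted p = 0.207). The level of Eif1a over Eif1ax, set to 0 at the WT UN mean, was 0.29 and 0.63 in WT N4, against -0.19 and 0.19 in WT UN. These ranges were apart; the difference is a description and was not tested. Eif1b, a second gene for an eIF1 protein, differed by 0.33 and did not pass (adjusted p = 0.0795, or 0.036 with the replicate block).

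The carriers of the initiator tRNA were measured through 3 genes. Eif2s2, the beta subunit of eIF2, read 13.75 and 13.77 in WT N4, against 13.46 and 13.20 in WT UN, and rose by 0.43 (SE 0.15, adjusted p = 0.0425). Eif2d, which can place a tRNA in the ribosome without GTP and acts in recycling, read 11.43 and 11.74 in WT N4, 11.44 and 11.75 in PKC theta KO N4, 11.55 and 11.82 in p50 cRel DKO N4, and 10.41 and 10.79 in WT UN. All its arrays with peptide were above those without, with a WT difference of 0.99 (SE 0.19, adjusted p = 0.00391). Its probe sets disagreed: the next brightest rose by 0.88, and a dim one, with a mean of 7.19, differed by -0.17. Eif2a, an alternative carrier that is not the alpha subunit of eIF2, spread by over 1 unit within WT UN (10.04 and 11.15) and did not pass (0.89, SE 0.44, adjusted p = 0.147). That call depends on the fit and the probe set: the adjusted p was 0.00576 with the replicate block, and a second probe set, with a mean of 11.04, gave 0.74 with an adjusted p of 0.0142 in the fit over probe sets.

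Of the exchange factor eIF2B, 4 of the 5 subunits rose, with a median change of 0.96. Eif2b3, the gamma subunit, read 11.42 and 11.15 in WT N4, 11.28 and 11.05 in PKC theta KO N4, 11.29 and 10.89 in p50 cRel DKO N4, and 10.34 and 9.74 in WT UN. That is a 2.36-fold difference in WT (1.24, SE 0.23, adjusted p = 0.00294), with no overlap between arrays with and without peptide. Eif2b4, the delta subunit, had the lowest p of all factors: it read 11.82 and 11.74 in WT N4, 11.84 and 11.81 in PKC theta KO N4, 11.79 and 11.72 in p50 cRel DKO N4, and 10.81 and 10.88 in WT UN. The 6 arrays with peptide lay between 11.72 and 11.84, and the WT difference was 0.94 (SE 0.12, adjusted p = 0.000475).

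Eif2b5, the catalytic epsilon subunit, read 11.75 and 11.49 in WT N4, 11.57 and 11.43 in PKC theta KO N4, 11.69 and 11.42 in p50 cRel DKO N4, and 10.81 and 10.51 in WT UN. It rose by 0.96 (SE 0.17, adjusted p = 0.00235), a call that ended when a second, very dim probe set was averaged in (0.44, adjusted p = 0.214). Eif2b1, the alpha subunit, read 11.31 and 10.81 in WT N4, 11.21 and 10.48 in PKC theta KO N4, 11.25 and 11.02 in p50 cRel DKO N4, and 10.18 and 9.95 in WT UN. It rose by 1.00 (SE 0.26, adjusted p = 0.0151), and the call was lost without WT N4 replicate 1 (0.75, adjusted p = 0.0987) and without WT UN replicate 2 (0.88, adjusted p = 0.0793). The beta subunit Eif2b2 was the exception, at 11.29 and 11.33 in WT N4 and 11.30 and 11.15 in WT UN. Its groups overlapped, and the difference was 0.082 (95% interval -0.21 to 0.37, adjusted p = 0.655); after median centring it was 0.50 (adjusted p = 0.0484). Of the complex, 4 subunits rose in all 3 scalings.

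**Figure D2:**
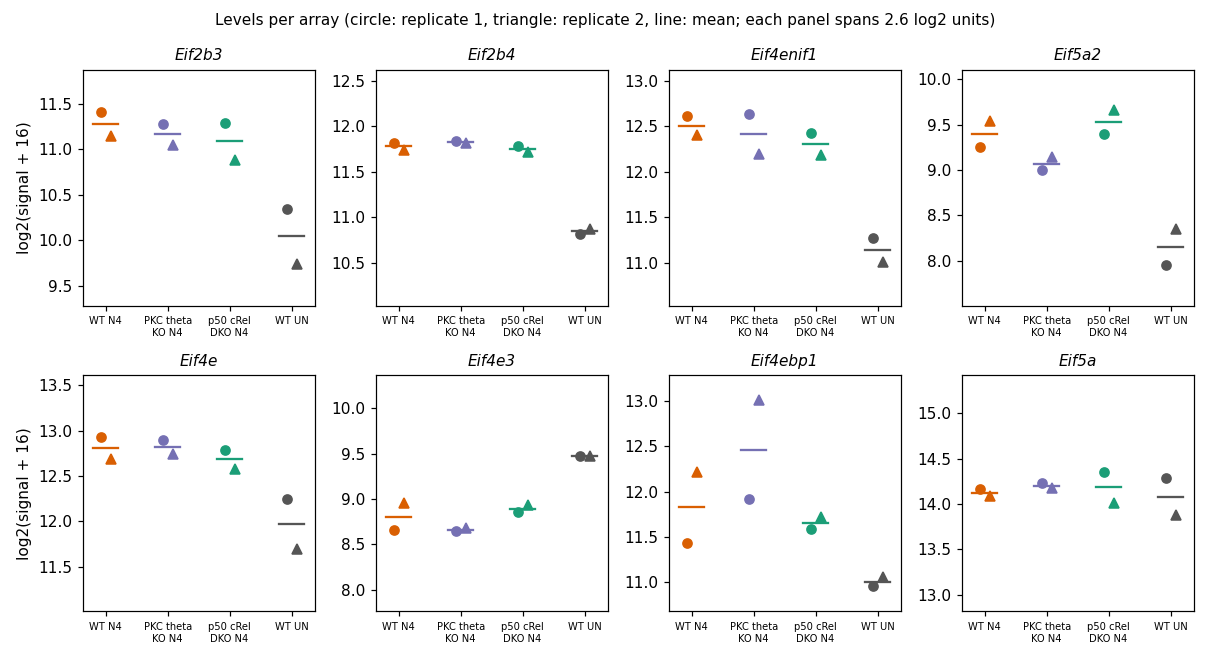
Level of 8 initiation factors on each array, as log2(signal + 16), with circles for replicate 1, triangles for replicate 2 and a line at the group mean; every panel spans the same range of log2 units. Eif2b3, Eif2b4, Eif4enif1, Eif5a2 and Eif4e lie higher on every array with peptide than on both WT UN arrays, Eif4e3 lies lower, Eif4ebp1 is spread widely within WT N4 and PKC theta KO N4, and the Eif5a groups overlap.

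The scaffold eIF3 holds the small subunit and the cap complex together. Of 11 measured subunits 6 rose (Eif3a, Eif3b, Eif3c, Eif3d, Eif3l and Eif3m) and 5 did not pass (Eif3e, Eif3f, Eif3h, Eif3i and Eif3k), with a median change of 0.38. After quantile normalization 5 rose, and after median centring 8, with medians over all genes of 0.088 and 0.32. By the brightest probe sets, Eif3b, a core subunit, had the strongest change (0.73, SE 0.13, adjusted p = 0.00195). It read 12.63 and 12.56 in WT N4, 12.59 and 12.52 in PKC theta KO N4, 12.59 and 12.58 in p50 cRel DKO N4, and 11.98 and 11.75 in WT UN. Eif3a, the largest subunit, read 13.72 and 13.78 in WT N4, 13.87 and 13.77 in PKC theta KO N4, 13.93 and 13.82 in p50 cRel DKO N4, and 13.41 and 13.34 in WT UN. The groups did not overlap, and Eif3a rose by 0.38 (SE 0.11, adjusted p = 0.0234), but its adjusted p was 0.0877 without WT N4 replicate 1, 0.128 without WT N4 replicate 2 and 0.0926 without WT UN replicate 2.

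Eif3f, which carries an MPN domain, as Eif3h does, read 13.68 and 13.57 in WT N4 and 13.86 and 13.62 in WT UN, with overlapping groups and a difference of -0.11 (95% interval -0.43 to 0.20) that was 0.31 after median centring. Eif3h differed by 0.11, Eif3k by 0.12, Eif3e by 0.22 and Eif3i by 0.31 (adjusted p from 0.0561 for Eif3i to 0.657 for Eif3k), and with the replicate block Eif3i passed (adjusted p = 0.0142). Whether the subunits that rose differ from those that did not was not tested.

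The factors that open and load the mRNA come next. In the group of the helicase eIF4A and its helpers 1 of 4 rose. This was Eif4h, an activator of eIF4A, with narrow groups at 13.82 and 13.83 in WT N4 and 13.46 and 13.42 in WT UN (0.38, SE 0.10, adjusted p = 0.0157). In a limma fit over probe sets its next brightest gave 0.36 (adjusted p = 0.0599), and another, with a mean of 12.55, gave 0.54 (adjusted p = 0.0195). A dim one, with a mean of 6.22, gave -1.11 (adjusted p = 0.0383), and further dim ones at -0.15 and 0.055 did not pass. Eif4a1, the main helicase gene, read 13.95 and 13.83 in WT N4, 14.00 and 13.85 in PKC theta KO N4, 14.23 and 13.69 in p50 cRel DKO N4, and 13.98 and 13.51 in WT UN. These ranges overlapped, with a difference of 0.14 (95% interval -0.32 to 0.61, adjusted p = 0.626) that was -0.088 without WT UN replicate 2. Other Eif4a1 probe sets, with means of 13.86 and 13.66, gave 0.32 and 0.37. Neither passed in the fit over probe sets (adjusted p = 0.308 and 0.158). Eif4a2, a close relative of Eif4a1, read 13.27 and 13.40 in WT N4, 13.33 and 13.42 in PKC theta KO N4, 13.51 and 13.32 in p50 cRel DKO N4, and 13.73 and 13.45 in WT UN. The WT N4 arrays lay below the WT UN arrays by 0.26 as deposited, which did not pass (-0.26, SE 0.14, adjusted p = 0.168); the value was -0.36 after quantile normalization (adjusted p = 0.0194) and 0.16 after median centring.

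The 2 helicase genes moved apart within arrays. The level of Eif4a1 over Eif4a2, set to 0 at the WT UN mean, was 0.53 and 0.27 in WT N4, 0.52 and 0.27 in PKC theta KO N4, 0.56 and 0.21 in p50 cRel DKO N4, and 0.093 and -0.093 in WT UN. Every array with peptide was above both without it, a description that was not tested. Eif4b, another activator of the helicase, differed by 0.34 and did not pass (adjusted p = 0.0633). It passed with the replicate block (adjusted p = 0.026), and its other 2 probe sets passed in the fit over probe sets, at 0.54 (adjusted p = 0.023) and 0.73 (adjusted p = 0.0125). Of the scaffold genes, Eif4g2, a relative of eIF4G that lacks the eIF4E site, differed by 0.063, and Eif4g3 by -0.072; neither passed (adjusted p = 0.775 for Eif4g2 and 0.737 for Eif4g3), and Eif4g3 was at 0.35 after median centring.

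Of the cap-binding genes, Eif4e and Eif4e2 rose and Eif4e3 fell in the values as deposited. Eif4e, the main cap-binding protein, read 12.93 and 12.69 in WT N4, 12.90 and 12.74 in PKC theta KO N4, 12.78 and 12.58 in p50 cRel DKO N4, and 12.24 and 11.69 in WT UN. It rose by 0.84 (SE 0.19, adjusted p = 0.00776), with an adjusted p of 0.0541 without WT N4 replicate 1. Its next brightest probe set gave 1.05. Eif4e3, an atypical cap-binding relative, was the 1 factor that fell, with 8.66 and 8.96 in WT N4, 8.65 and 8.68 in PKC theta KO N4, 8.86 and 8.93 in p50 cRel DKO N4, and 9.48 and 9.48 in WT UN. All 6 arrays with peptide lay below both WT UN arrays (-0.67 in WT, SE 0.18, adjusted p = 0.016). The fall did not pass after quantile normalization (-0.44, adjusted p = 0.0704) or median centring (-0.25, adjusted p = 0.305), and leaving out WT UN replicate 1, WT UN replicate 2 or WT N4 replicate 1 gave adjusted p of 0.0668, 0.0677 and 0.115.

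Within arrays, Eif4e over Eif4e3, set to 0 at the WT UN mean, was 1.78 and 1.24 in WT N4, 1.76 and 1.57 in PKC theta KO N4, 1.44 and 1.16 in p50 cRel DKO N4, and 0.27 and -0.27 in WT UN. The arrays with peptide were all higher, by 1.51 on average in WT. Eif4e2, a cap-binding relative that represses translation, rose by 0.65 (SE 0.13, adjusted p = 0.00446), with 11.83 and 11.78 in WT N4, 11.76 and 11.58 in PKC theta KO N4, 11.88 and 11.72 in p50 cRel DKO N4, and 11.14 and 11.17 in WT UN. Its probe sets did not agree: an equally bright one gave 0.45, a dimmer one with a mean of 9.18 gave -0.40, and the mean of all sets gave 0.081 (adjusted p = 0.782). The level of Eif4e over Eif4e2 was 0.28 and 0.098 in WT N4 and 0.29 and -0.29 in WT UN, which overlapped.

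Of the genes for proteins that bind eIF4E, Eif4enif1 rose and the 2 inhibitor genes did not pass by their brightest probe sets. Eif4enif1, which carries eIF4E into the nucleus and into processing bodies, had the largest change of the 40 factors. It read 12.62 and 12.41 in WT N4, 12.64 and 12.19 in PKC theta KO N4, 12.43 and 12.19 in p50 cRel DKO N4, and 11.27 and 11.01 in WT UN. That was 2.59-fold higher in WT N4 (1.37, SE 0.19, adjusted p = 0.000594), and the 6 arrays with peptide were well apart from the 2 without. Eif4ebp1, the inhibitor that releases eIF4E when mTOR phosphorylates it, read 11.44 and 12.22 in WT N4, 11.92 and 13.01 in PKC theta KO N4, 11.58 and 11.72 in p50 cRel DKO N4, and 10.96 and 11.06 in WT UN. The arrays with peptide were all higher but widely spread. The WT difference of 0.82 (SE 0.35) had an adjusted p of 0.0912, or 0.0152 with the replicate number as a block. Among other settings, it passed after median centring (1.24, adjusted p = 0.0118) and in some fits without 1 array, and was 1.21 without WT N4 replicate 1. In the fit over probe sets its next brightest, with a mean of 10.99, gave 0.92 and passed (adjusted p = 0.0397). A dim one, with a mean of 6.73, gave 0.42 and did not (adjusted p = 0.404).

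Eif4ebp2, a second such inhibitor, read 12.31 and 12.07 in WT N4, 12.31 and 11.91 in PKC theta KO N4, 12.10 and 12.11 in p50 cRel DKO N4, and 11.75 and 11.80 in WT UN. The arrays with peptide were higher, and the difference of 0.42 (SE 0.16) had an adjusted p of 0.0665, or 0.0223 with the replicate block; the mean of its probe sets gave -0.14. The level of Eif4ebp1 over Eif4ebp2 was -0.10 and 0.91 in WT N4 and -0.030 and 0.030 in WT UN, with the first WT N4 array below both WT UN arrays and the other above.

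Among the late factors, 3 of the 4 in the eIF5, eIF5A and eIF5B group rose. Eif5, which makes eIF2 hydrolyse its GTP, rose by 0.52 (SE 0.11, adjusted p = 0.00599), with 13.32 and 13.43 in WT N4, 13.35 and 13.45 in PKC theta KO N4, 13.34 and 13.40 in p50 cRel DKO N4, and 12.89 and 12.82 in WT UN. Eif5b, the GTPase of subunit joining, read 11.91 and 11.60 in WT N4, against 11.10 and 10.63 in WT UN, and rose by 0.89 (SE 0.21, adjusted p = 0.00959). Eif6, which keeps free large subunits from joining small ones and acts in their assembly, read 13.25 and 12.91 in WT N4, 13.10 and 12.83 in PKC theta KO N4, 13.12 and 12.74 in p50 cRel DKO N4, and 12.31 and 11.96 in WT UN. Eif6 rose by 0.94 (SE 0.19, adjusted p = 0.00478), without overlap, although its other, dimmer probe set gave 0.45 (adjusted p = 0.276 when used in its place).

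The 2 genes for eIF5A, the protein that carries the modified residue hypusine and helps ribosomes past difficult stretches, differed in their brightest probe sets. Eif5a2 read 9.25 and 9.54 in WT N4, 9.01 and 9.14 in PKC theta KO N4, 9.39 and 9.66 in p50 cRel DKO N4, and 7.96 and 8.35 in WT UN. All arrays with peptide were above those without, and Eif5a2 rose 2.37-fold in WT (1.24, SE 0.21, adjusted p = 0.00182). Eif5a read 14.17 and 14.08 in WT N4, 14.23 and 14.17 in PKC theta KO N4, 14.36 and 14.01 in p50 cRel DKO N4, and 14.29 and 13.87 in WT UN. Those groups overlapped (0.045, 95% interval -0.33 to 0.42, adjusted p = 0.861), and the value was -0.16 without WT UN replicate 2. A second Eif5a probe set, with a mean of 13.08, gave 0.63 with an adjusted p of 0.00777 in a limma fit over probe sets. A second Eif5a2 probe set, with a mean of 7.52, gave 0.67 in that fit and did not pass (adjusted p = 0.0822). The call for Eif5a and the difference between the 2 genes therefore depend on the probe sets. The level of Eif5a over Eif5a2, set to 0 at the WT UN mean, was -1.01 and -1.39 in WT N4, -0.71 and -0.90 in PKC theta KO N4, -0.97 and -1.58 in p50 cRel DKO N4, and 0.40 and -0.40 in WT UN, lower on every array with peptide.

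Bright and dim probe sets of the factors changed by different amounts. In the 10 factors with the brightest probe sets (means of 13.58 to 14.15) the median change was 0.26 and 4 rose, and in the next 10 the median was 0.53 and 6 rose. The third 10 had a median of 0.78 with 7 higher, and the dimmest 10 (8.96 to 11.51) a median of 0.93 with 6 higher and 1 lower. As a description, Spearman's correlation between mean level and change was -0.50 over the 40 factors and 0.34 over all 12520 genes; the points share the same arrays, and a probe set's brightness depends on its probes as well as on the transcript. Over all genes in the brightness range of the first 10 factors, 24.8% rose with a median change of 0.19. In the ranges of the next 10 and the third 10, 40.4% and 40.5% rose with medians of 0.33 and 0.33, and in that of the dimmest 10, 23.5% rose with a median of 0.022.

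The factors were read by 115 probe sets, of which 106 passed the filter. Besides the 40 used, 66 others passed in 29 of the factors, and 52 of them changed in the same direction as the brightest while 14, in 10 factors, did not.

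**Figure D3:**
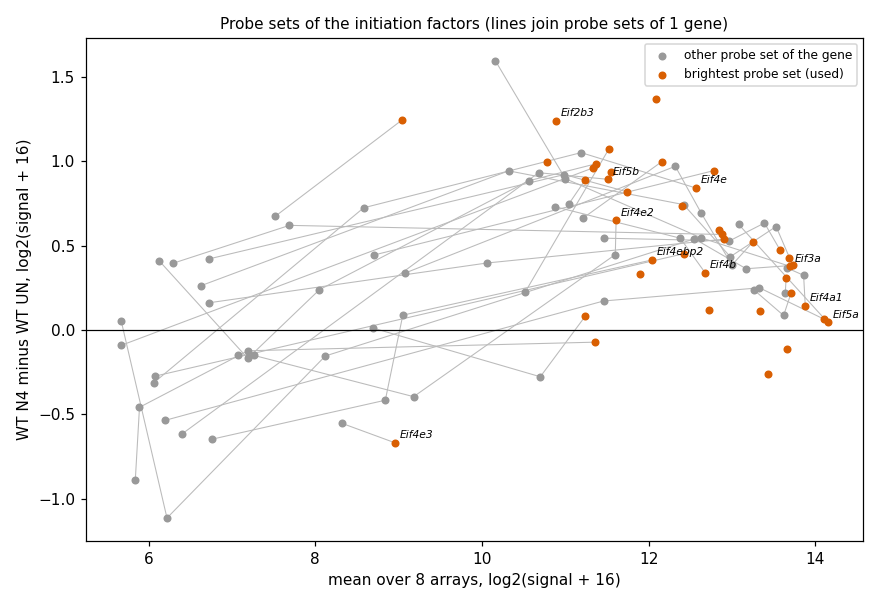
Mean level of each probe set of the initiation factors over the 8 arrays, against its change in WT N4 minus WT UN, both as log2(signal + 16). Orange points are the brightest probe sets, which were used, grey points are other probe sets past the filter, and lines join probe sets of 1 gene. The brightest orange points sit close to 0, and several dim grey points lie below 0 while the bright probe set of the same gene lies above it.

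Promoter sequence was available for 32 of the 41 factors, as RefSeq windows of 250 bases before a start of the gene on assembly GRCm38.p6. Some genes have several windows (32851 windows for 27025 genes), and a gene was counted where any of its windows held the letters. A gene with more windows thus had more chances of a match. The letters CACGTG, the E-box that Myc and related proteins are known to bind, were found in this way in 8 of the 32 (25.0%), against 6.86% of 27025 genes. The motif reads the same on both strands. It was present in 3 of the 20 factors that rose and have a window (Eif4e, Eif5a2 and Eif4h) and in 5 of the 11 that did not pass (Eif1b, Eif3f, Eif3k, Eif4a1 and Eif5a); the window left over is that of Eif4a3. The ETS-type letters CCGGAAG, searched on both strands, were in 11 of 32 (34.4%, against 7.83% of genes), in 8 of the 20 that rose and 3 of the 11 that did not pass. The letters TGATGNAA, the core of the ATF4 element, and the NF-kB consensus were each found in 0 of the 32 factors, against 3.91% and 8.23% of genes on both strands. These are matches of letters and not binding sites. The windows of the 3 E-box factors that rose and of the 2 main genes that did not pass are shown, because they set the rising eIF5A and cap-binding genes beside an eIF5A and a helicase gene that did not pass. For each gene the window shown was picked because it holds the E-box. Eif4e has 2 windows, 1 of them with it, and Eif5a has 6, 3 of them with it. Each is written 5′ to 3′ on the strand of the gene with the E-box in capitals, and lies at chr3:138527018-138527267 on the plus strand for Eif4e, chr3:28781027-28781276 on the plus strand for Eif5a2, chr5:134639410-134639659 on the minus strand for Eif4h, chr11:69920631-69920880 on the minus strand for Eif5a and chr11:69672424-69672673 on the minus strand for Eif4a1.
Eif4e: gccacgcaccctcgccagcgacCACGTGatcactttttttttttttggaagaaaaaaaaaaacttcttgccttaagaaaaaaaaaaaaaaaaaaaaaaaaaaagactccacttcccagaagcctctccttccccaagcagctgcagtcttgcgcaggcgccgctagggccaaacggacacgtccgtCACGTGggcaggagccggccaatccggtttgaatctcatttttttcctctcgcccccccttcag
Eif5a2: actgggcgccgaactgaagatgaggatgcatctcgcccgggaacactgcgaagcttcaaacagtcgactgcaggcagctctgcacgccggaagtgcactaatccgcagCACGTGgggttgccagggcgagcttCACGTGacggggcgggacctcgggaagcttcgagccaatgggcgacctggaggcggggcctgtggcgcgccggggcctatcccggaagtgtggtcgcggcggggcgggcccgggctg
Eif4h: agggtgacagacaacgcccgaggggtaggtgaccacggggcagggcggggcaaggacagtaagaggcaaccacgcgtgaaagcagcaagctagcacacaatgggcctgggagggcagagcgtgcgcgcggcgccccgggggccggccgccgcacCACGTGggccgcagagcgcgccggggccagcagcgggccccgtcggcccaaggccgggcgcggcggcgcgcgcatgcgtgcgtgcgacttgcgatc
Eif5a: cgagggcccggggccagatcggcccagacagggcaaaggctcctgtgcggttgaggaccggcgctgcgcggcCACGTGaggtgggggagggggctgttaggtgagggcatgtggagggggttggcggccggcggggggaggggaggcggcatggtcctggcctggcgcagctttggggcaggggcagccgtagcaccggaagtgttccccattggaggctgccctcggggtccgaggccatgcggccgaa
Eif4a1: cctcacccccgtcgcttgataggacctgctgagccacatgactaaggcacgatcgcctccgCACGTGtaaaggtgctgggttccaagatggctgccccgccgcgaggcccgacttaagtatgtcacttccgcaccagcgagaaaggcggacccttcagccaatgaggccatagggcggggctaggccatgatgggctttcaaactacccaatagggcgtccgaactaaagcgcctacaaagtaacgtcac

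In the windows shown, the E-boxes begin 228 and 64 bases before the start of Eif4e, 142 and 117 before that of Eif5a2 and 96 before that of Eif4h. They begin 178 bases before the start of Eif5a and 189 before that of Eif4a1. Eif5a2 and Eif5a both have the letters, and their brightest probe sets changed by 1.24 and 0.045.

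No initiation factor passed the test between either knockout and the wild type with peptide. In PKC theta KO N4 against WT N4, 0 of the 40 factors passed limma's test, against 0.0240% of all genes in either direction, 0 higher and 0.0240% lower. That share is 3 genes, the Y-linked Kdm5d, Uty and Eif2s3y, which differ with sex as well as genotype. So no gene outside the Y chromosome passed in this comparison, and the 0 among the factors does not set them apart. At an unadjusted p under 0.05 there were also 0 factors, and 2.96% of all genes. The changes ran from -0.32 to 0.64 with a median of 0.017, and 23 were positive. The 95% interval of the difference lay within a 2-fold change either way for 38 of 40 factors and within 0.5 for 26.

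The 3 factors with the lowest p in that comparison did not pass. Eif4ebp1 was 0.64 higher (SE 0.35, 95% interval -0.15 to 1.42, adjusted p = 1), with the PKC theta KO N4 arrays at 11.92 and 13.01 and the WT N4 arrays at 11.44 and 12.22, which overlap. Eif4g3 was 0.22 lower in the knockout by its estimate (-0.22, 95% interval -0.55 to 0.11), at 11.31 and 11.10 in PKC theta KO N4 against 11.34 and 11.52 in WT N4. Eif5a2 differed by -0.32 (95% interval -0.80 to 0.16), at 9.01 and 9.14 in PKC theta KO N4 against 9.25 and 9.54 in WT N4, without overlap. The intervals of Eif4ebp1 and Eif2a reach past a 2-fold change, so a change of that size is not excluded for them.

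The double knockout was compared in the same way. In p50 cRel DKO N4 against WT N4, 0 of 40 factors passed, against 0.519% of all genes, 0.248% higher and 0.272% lower, and 0 had an unadjusted p under 0.05, against 6.29% of all genes. The changes ran from -0.20 to 0.13 with a median of -0.008, and 18 were positive. The 95% interval lay within a 2-fold change for 39 factors, the exception being Eif2a (-1.17 to 0.85), and within 0.5 for 29.

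The lowest p-values in the double knockout belonged to Eif2b2, Eif3a and Eif4enif1. Eif2b2 read 11.16 and 11.17 in p50 cRel DKO N4, against 11.29 and 11.33 in WT N4 (-0.15, 95% interval -0.44 to 0.14). Eif3a was higher by 0.13 (95% interval -0.12 to 0.38), at 13.93 and 13.82 against 13.72 and 13.78 in WT N4. Eif4enif1 differed by -0.20 (95% interval -0.62 to 0.22), at 12.43 and 12.19 against 12.62 and 12.41 in WT N4. None of the 3 passed (adjusted p = 1 for each).

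**Figure D4:**
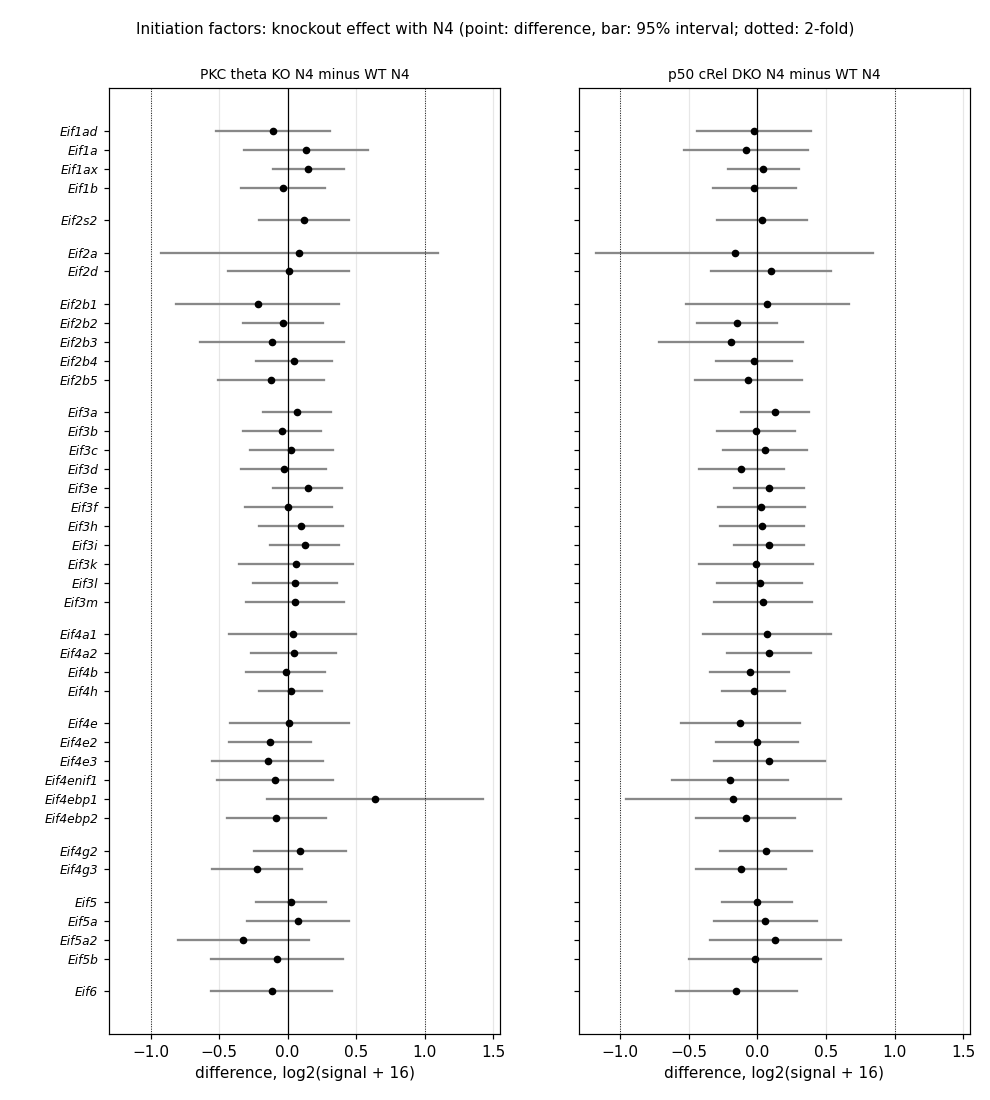
Difference of each measured initiation factor in PKC theta KO N4 minus WT N4 (left) and p50 cRel DKO N4 minus WT N4 (right), as log2(signal + 16). Points are limma estimates, bars are 95% intervals and dotted lines mark a 2-fold change. Nearly all intervals lie between the dotted lines, and those of Eif2a in both panels and of Eif4ebp1 on the left cross them.

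The knockouts were then set against each other. In p50 cRel DKO N4 against PKC theta KO N4, 0 of 40 factors passed, against 0.431% of all genes, 0.240% higher and 0.192% lower. At an unadjusted p under 0.05 there was 1 factor, Eif4ebp1, and 7.16% of all genes. Eif4ebp1 read 11.58 and 11.72 in p50 cRel DKO N4, against 11.92 and 13.01 in PKC theta KO N4, a difference of -0.81 (SE 0.35, 95% interval -1.60 to -0.028, adjusted p = 0.673). Its groups did not overlap. Eif5a2 was 0.45 higher by its estimate (95% interval -0.025 to 0.93, adjusted p = 0.737) and Eif4e3 0.23 higher (95% interval -0.17 to 0.64, adjusted p = 0.906), and neither passed.

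Against WT UN, most factors were also higher in both knockouts. In PKC theta KO N4, 26 factors rose and 1 fell, against 40.6% of all genes in either direction, 16.5% higher and 24.0% lower, with a median change of 0.53 for the factors and -0.13 for all genes. The split was 20 higher and 4 lower after quantile normalization, where 4963 of 12517 genes passed. Without PKC theta KO N4 replicate 1 the median change was 0.49 for the factors and -0.096 for all genes, and fewer of both passed. In p50 cRel DKO N4, 24 rose and 1 fell, against 39.3% of all genes, 16.5% higher and 22.8% lower, with medians of 0.51 and -0.12; 12 passed without p50 cRel DKO N4 replicate 1 and 13 without WT UN replicate 2. Eif4e3 was the factor that fell in each, by 0.82 in PKC theta KO N4 (-0.82, adjusted p = 0.00637) and by 0.58 in p50 cRel DKO N4 (-0.58, adjusted p = 0.0293). These 2 comparisons and that of WT N4 share the WT UN arrays, so their likeness is not independent evidence.

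The values of the leading factors in the 3 comparisons with WT UN are set side by side. Eif4enif1 was at 1.28 in PKC theta KO N4, 1.17 in p50 cRel DKO N4 and 1.37 in WT N4. Eif5a2 was at 0.92 in PKC theta KO N4, 1.37 in p50 cRel DKO N4 and 1.24 in WT N4. Eif2b4 was at 0.98, 0.91 and 0.94 in that order of groups, Eif2b3 at 1.13, 1.05 and 1.24, and Eif4e at 0.85, 0.72 and 0.84. The eIF2B complex had 4 of 5 subunits higher in each, with medians of 0.84, 0.91 and 0.96. The factor with the widest range was Eif4ebp1, at 1.46 in PKC theta KO N4 (adjusted p = 0.00953), 0.64 in p50 cRel DKO N4 (adjusted p = 0.178, or 0.0423 with the replicate block) and 0.82 in WT N4. Of the eIF3 subunits, 8 rose in PKC theta KO N4, 7 in p50 cRel DKO N4 and 6 in WT N4, and after quantile normalization the first count was 4, with 1 lower.

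**Figure D5:**
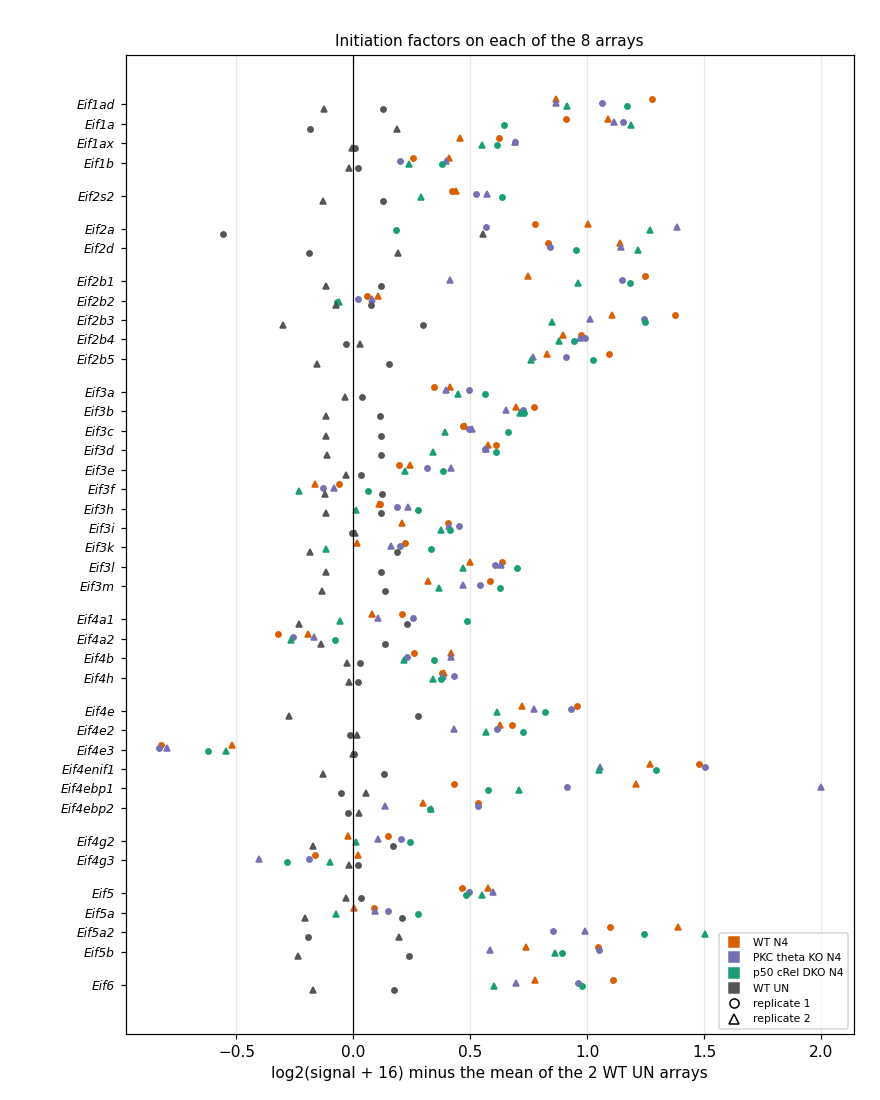
Each of the 40 measured initiation factors on each of the 8 arrays, as log2(signal + 16) minus the mean of the 2 WT UN arrays of that gene; colour marks the group, and circles and triangles mark replicates 1 and 2. The 3 groups with peptide lie together and mostly right of the grey WT UN points, Eif4e3 lies left of them, and PKC theta KO N4 replicate 2 of Eif4ebp1 is the point farthest right.

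Other genes of protein synthesis were read from lists of the same pathway, beside 17.2% of all genes higher and 23.5% lower. Of 10 measured elongation and termination genes 5 rose in WT N4 against WT UN and 0 fell (median 0.61, against -0.10 for all genes). Gspt1, which encodes a release factor, rose by 0.90, Etf1, its partner, by 0.77, and Abce1 and Pelo, which recycle and rescue ribosomes, by 0.81 and 0.84. Eef1e1 rose by 0.78. The 5 that did not pass were Eef1a1 (-0.18), Eef1b2 (0.086), Eef1d (0.45), Eef2 (0.011) and Hbs1l (0.18), so most elongation factor genes of the list did not rise. Of these, Eef1d passed after quantile normalization (adjusted p = 0.0253) and after median centring (adjusted p = 0.0254). Of 18 initiation helpers and inhibitors 8 rose and 1 fell (median 0.26). Bzw2, which encodes a protein that mimics eIF5, rose by 1.22 (adjusted p = 0.00136), and Dhx29, a helicase of the scanning ribosome, by 0.77. Pdcd4, an inhibitor that binds eIF4A, fell by 1.44 (-1.44, SE 0.22, adjusted p = 0.00109), and it also fell in the other scalings (-1.60 after quantile normalization and -1.02 after median centring).

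Of 22 measured kinases and other regulators of initiation 1 rose and 4 fell (median 0.042), shares no higher than those of all genes as deposited. The counts were 4 and 3 after quantile normalization and 9 and 2 after median centring. In those scalings 5073 of 12517 and 5389 of 12520 genes passed in either direction, and the medians over all genes were 0.088 and 0.32. Eif2ak3, the PERK kinase that phosphorylates eIF2 under stress in the endoplasmic reticulum, fell by 1.32 (-1.32, adjusted p = 0.00119), and Impact, which restrains another such kinase, fell by 1.17 (-1.17, adjusted p = 0.00079). Both fell in all 3 scalings. Mknk1, which phosphorylates eIF4E, fell by 0.86 and Tsc1, a brake on mTOR, by 0.76, and neither passed after median centring (adjusted p = 0.225 for Mknk1 and 0.311 for Tsc1). Csnk2a1, a catalytic subunit of casein kinase, rose by 0.61.

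The enzymes that modify eIF5A rose. Dhps and Dohh, which make hypusine on eIF5A, rose by 0.93 (adjusted p = 7e-04) and 0.69 (adjusted p = 0.00739). Srm, which makes the spermidine that serves as the donor, rose by 1.26 (adjusted p = 0.000651), and Odc1, which starts polyamine synthesis, by 0.60. Over the list of 9 measured genes 4 rose and 2 fell (Sat1 and Oaz2, which break down or limit polyamines), with a median of 0.22; the 2 that fell did not pass after median centring. Over these 4 lists 59 genes were measured. By limma 0 of them passed in PKC theta KO N4 against WT N4, in p50 cRel DKO N4 against WT N4 or in p50 cRel DKO N4 against PKC theta KO N4, and 1, 2 and 3 had an unadjusted p under 0.05.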

How the data were processed

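The deposited values are intensity values on a linear scale, 1 signal per probe set and array, which the authors produced with MAS5 and GCOS 1.4, per the submitters' processing notes. Every array had a 2% trimmed mean of 500 in the values themselves, and median signals ran from 33.8 to 70.5; the number of arrays limits the precision. Genes were named through the platform annotation, with symbols updated from RefSeq (GRCm38.p6): 34945 probe sets had 1 symbol, 932 had several and were not used (among them those of Eif4ebp3 and the 2 Eif3j genes), 9160 were unlisted, and 64 controls were left out.

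Signals were transformed as log2(signal + 16), probe sets with a mean under the 40th percentile were left out, and the brightest probe set per gene was kept, giving 12520 genes. All 8 arrays, with groups taken from the sample titles, entered 1 fit with limma 3.58.1 in R 4.3.3 (lmFit, eBayes with trend, 4 residual degrees of freedom). The fit was tested on simulated data and gives the 95% intervals. Arrays of equal replicate number deviated together (Pearson's r across genes from 0.255 to 0.579 in all 6 pairs of groups), so the numbers were taken to pair the samples, and a fit with the number as a block was run. The number comes from the titles, where the unnumbered array of a group was taken as 1.

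Given array by array are the 10 largest rises and falls among the factors that passed, the lowest p-values where fewer than 3 passed, and a set of fixed factors and paralogue pairs; a few others are named to complete a complex. Members and lists were chosen with earlier results of these data known. Eif1, Eif2s1 and Eif4g1, named in that set, were not analysed here. Alternatives were the pseudocount, the filter, quantile normalization, median centring, the choice of probe set, eBayes without trend, fits on the compared groups only, the replicate block and leaving out each array.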

Additional observations from a re-analysis of the deposited data

How the results depend on the processing

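In WT N4 against WT UN 24 factors passed, and 15 passed with the mean of all probe sets; leaving out each array in turn gave 13 to 24. The same range was 15 to 26 in PKC theta KO N4 against WT UN and 12 to 24 in p50 cRel DKO N4 against WT UN, with fewer arrays in each such fit. The replicate block gave 30 factors (29 higher, 1 lower), 29 and 29 in these comparisons, against 24, 27 and 25 without it. The comparisons of knockouts with WT N4 and with each other had 0 factors in all settings. Over all genes, p50 cRel DKO N4 against WT N4 had 65 calls, 200 with the block, 35 without trend and 13 to 77 leaving out arrays; p50 cRel DKO N4 against PKC theta KO N4 had 54, 152 with the block, 98 on the 4 arrays alone, 28 with no filter, 17 without trend and 0 to 65 leaving out arrays; PKC theta KO N4 against WT N4 had 3, and 0 to 5 elsewhere. The block lost no call of a factor and gained 6, 2 and 4 in the 3 comparisons with WT UN: Eif1b, Eif2a, Eif3i, Eif4b, Eif4ebp1 and Eif4ebp2 in WT N4, Eif2a and Eif4b in PKC theta KO N4 (adjusted p = 0.00356 and 0.0317), and Eif1b, Eif2a, Eif3e and Eif4ebp1 in p50 cRel DKO N4 (adjusted p = 0.0476, 0.0156, 0.0209 and 0.0423); it changed no other call of a factor.

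Of 882 recomputed values of single factors 827 kept their sign and side of the threshold, and 6 of the 15 named factors that passed in WT kept both in all 18 settings (Eif4enif1, Eif5a2, Eif2b3, Eif1ad, Eif1a and Eif2b4). Signs turned for Eif2d (-0.168 in WT N4, -0.094 in PKC theta KO N4 and -0.343 in p50 cRel DKO N4, each against WT UN) and Eif4e2 (-0.395 in WT N4 and -0.235 in p50 cRel DKO N4) when probe sets with plain _at names were preferred, for Eif4ebp2 (-0.14) with the mean of all probe sets, for Eif4a2 (0.163) after median centring, and for Eif4a1 and Eif5a without WT UN replicate 2 (leaving out arrays gave -0.088 to 0.374 and -0.162 to 0.252); the cause was not tested.

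The change of Eif4e over Eif4e3 was 1.122 after quantile normalization and 1.187 with the mean of all probe sets, and 1.236 to 1.784 leaving out arrays. Eif4e over Eif4e2 was 0.495 with the mean of all sets, 1.236 with plain _at sets preferred, and -0.101 to 0.482 leaving out arrays. Eif5a over Eif5a2 was -0.623 with the mean of all sets and -1.602 to -0.796 leaving out arrays. The other ranges leaving out arrays were 0.272 to 0.529 for Eif4a1 over Eif4a2, -0.103 to 0.909 for Eif4ebp1 over Eif4ebp2 and 0.268 to 0.652 for Eif1a over Eif1ax.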
